A study of Mus musculus with 8 samples.

Results

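The extracellular matrix and stromal genes are 45 genes whose products build, assemble or remodel the matrix of connective tissue. They were chosen by name, with earlier results of these data known. A gene was measured where the array held a probe set annotated to that gene alone. The brightest probe set of a gene, by the mean over all arrays, stands for it. This left 43 of the 45, out of 12393 genes measured in all. Fbn1, which encodes the microfibril protein fibrillin-1, had no probe set of its own, and the single probe set of the crosslinking enzyme gene Loxl2 is shared with another gene, so neither is reported. The samples were lymph nodes (LN) of female and male C57Bl/6 mice aged 8 weeks, either H3RKO (with a germline deletion of the histamine H3 receptor gene, Hrh3) or wild type (WT). H3RKO and WT mice were injected with complete Freund's adjuvant together with pertussis toxin (CFA+PTX), injected with CFA alone, or left untreated, and LN of injected mice were taken at 24 h and snap frozen. CFA is an oil emulsion with killed mycobacteria and PTX is a toxin of Bordetella pertussis; for the CFA+PTX arrays the titles give only PTX, and the descriptions, followed here, give both agents. RNA of at least 3 mice was pooled for each of the 8 arrays, with 1 array for each of the 4 injected groups and 2 for each untreated group.

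The matrix of a LN is made mainly by fibroblastic reticular cells, which wrap collagen fibres into conduits that carry lymph fluid through the T cell area. Fibroblasts of the capsule and the fat around it, and the cells of vessel walls, add further collagen, elastic fibres and the basement membranes on which endothelium rests. Matrix is continually secreted, crosslinked by lysyl oxidases and cut by metalloproteinases that tissue inhibitors hold in check.

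The arrays carried high signals for lymphocyte genes, as a LN should: the mean over 11 marker genes such as Cd3e and Cd79a lay between 11.47 and 11.55 in the injected arrays and between 11.50 and 11.62 in the untreated arrays, on the log2 scale of the deposited signals. Tissue from outside the node was also present. The mean over 11 salivary and lacrimal gland genes was 6.64 in WT CFA+PTX and 9.85 in WT untreated replicate 1, whereas it lay between 11.69 and 12.28 in the other arrays, so those 2 arrays stood apart and the counts for each injection are also given without them. All values are bulk signals, in which fewer cells of a type and less RNA per cell cannot be told apart. Differences are on the log2 scale, where −1 means a signal 2-fold lower, and are given ± the SE of a limma fit, in which the spread of a probe set is moderated towards that of the others. Only the untreated groups had a second array. For genotypes within a treatment and for interactions, each lone injected array was therefore assumed to vary like the untreated pairs. The p-values there measure the spread between pools. In the comparisons over both genotypes or over all treatments, the spread also takes in departures of the genotypes from a shared treatment difference. With all injected arrays as 1 group, it also takes in the difference between the injections. Those p-values do not measure the spread between pools alone. The small number of arrays limits the precision.

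For 6 of the genes on which the results turn, the bases just before the transcription start are shown, because many genes of the set lay lower together after injection while others lay near their untreated level. Col1a2 and Col3a1 encode fibrillar collagens and Postn the matricellular protein periostin, all of them lower after injection; Timp2 encodes a metalloproteinase inhibitor whose signal stayed close to that of untreated LN; Vcan and Timp1 were higher in untreated H3RKO than in untreated WT LN. Each line gives the 200 bases upstream of the start in the 5′ to 3′ direction of the gene, from RefSeq on build GRCm38.p6; Postn has 2 starts listed and the most upstream one was used. Capitals mark a CCAAT box (CCAAT, or ATTGG on the other strand), a TATA box (TATAAA or TTTATA) or a GC box (GGGCGG or CCGCCC).
Col1a2, chr6:4505418-4505617, + strand: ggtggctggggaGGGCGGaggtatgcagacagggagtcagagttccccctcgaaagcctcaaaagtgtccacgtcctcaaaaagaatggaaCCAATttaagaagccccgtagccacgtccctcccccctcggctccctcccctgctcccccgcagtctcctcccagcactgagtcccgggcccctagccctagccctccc
Col3a1, chr1:45311338-45311537, + strand: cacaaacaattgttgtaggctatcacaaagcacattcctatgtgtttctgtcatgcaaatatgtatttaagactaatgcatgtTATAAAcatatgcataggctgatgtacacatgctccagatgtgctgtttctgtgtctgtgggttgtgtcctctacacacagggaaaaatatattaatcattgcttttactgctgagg
Postn, chr3:54359067-54359266, + strand: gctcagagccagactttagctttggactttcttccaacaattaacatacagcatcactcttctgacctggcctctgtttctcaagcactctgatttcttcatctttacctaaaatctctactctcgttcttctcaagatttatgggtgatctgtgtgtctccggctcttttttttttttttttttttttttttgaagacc
Timp2, chr11:118355412-118355611, - strand: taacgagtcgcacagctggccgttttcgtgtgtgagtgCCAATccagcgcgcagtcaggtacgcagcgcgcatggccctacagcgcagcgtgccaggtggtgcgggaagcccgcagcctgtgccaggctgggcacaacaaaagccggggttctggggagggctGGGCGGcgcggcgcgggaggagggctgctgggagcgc
Vcan, chr13:89742513-89742712, - strand: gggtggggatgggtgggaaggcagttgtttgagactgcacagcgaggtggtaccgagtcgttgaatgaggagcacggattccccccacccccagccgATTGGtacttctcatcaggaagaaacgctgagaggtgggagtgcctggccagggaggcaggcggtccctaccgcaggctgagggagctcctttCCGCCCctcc
Timp1, chrX:20869966-20870165, + strand: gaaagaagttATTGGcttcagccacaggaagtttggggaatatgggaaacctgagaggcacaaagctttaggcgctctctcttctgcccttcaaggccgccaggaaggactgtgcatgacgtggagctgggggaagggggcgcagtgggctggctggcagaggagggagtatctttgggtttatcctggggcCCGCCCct

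The windows held different motifs. Col1a2, Timp2, Vcan and Timp1 each had a CCAAT box and a GC box, Col3a1 had a TATA box, and Postn had none of these letters. Windows were found for 30 of the 45 genes, and each gene was counted once, at its most upstream start. The windows of all genes hold every listed start, so the rates below are not strictly alike. A CCAAT box was in 10 of these 30 and in 29.3% of all 32851 promoter windows of the same length, a TATA box in 3 and in 9.96%, and a GC box in 18 and in 31%. Col1a2, Col3a1 and Postn, all lower after injection, thus had no motif in common, while Col1a2 and Timp2 had 2 in common. A match describes the letters only and names no site of binding.

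After either injection, most matrix genes had lower signals than in untreated LN. With all injected arrays together, the largest differences were those of Lum (−1.09), Loxl1 (−0.98), Col3a1 (−0.93), Thbs1 (−0.89) and Postn (−0.84). In all 4 injected arrays, H3RKO and WT, 23 of the 43 genes had signals below all 4 untreated arrays (53.5%), against 2.93% of all genes. None of the 43 had all 4 injected arrays above the untreated ones, against 3.36% of all genes. Without WT CFA+PTX and WT untreated replicate 1, the other 3 injected arrays lay below the other 3 untreated arrays for 31 of 43 genes, against 7.07% of all genes. By role, these 23 were all 5 fibrillar collagens, all 4 beaded filament and fibril-associated collagens, 4 of 7 adhesive and matricellular glycoproteins, 3 of 5 proteoglycans, 3 of 5 folding and crosslinking genes, 3 of 8 basement membrane genes, 1 of 5 elastic fibre genes and none of the 4 proteases and inhibitors.

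**Figure D1:**
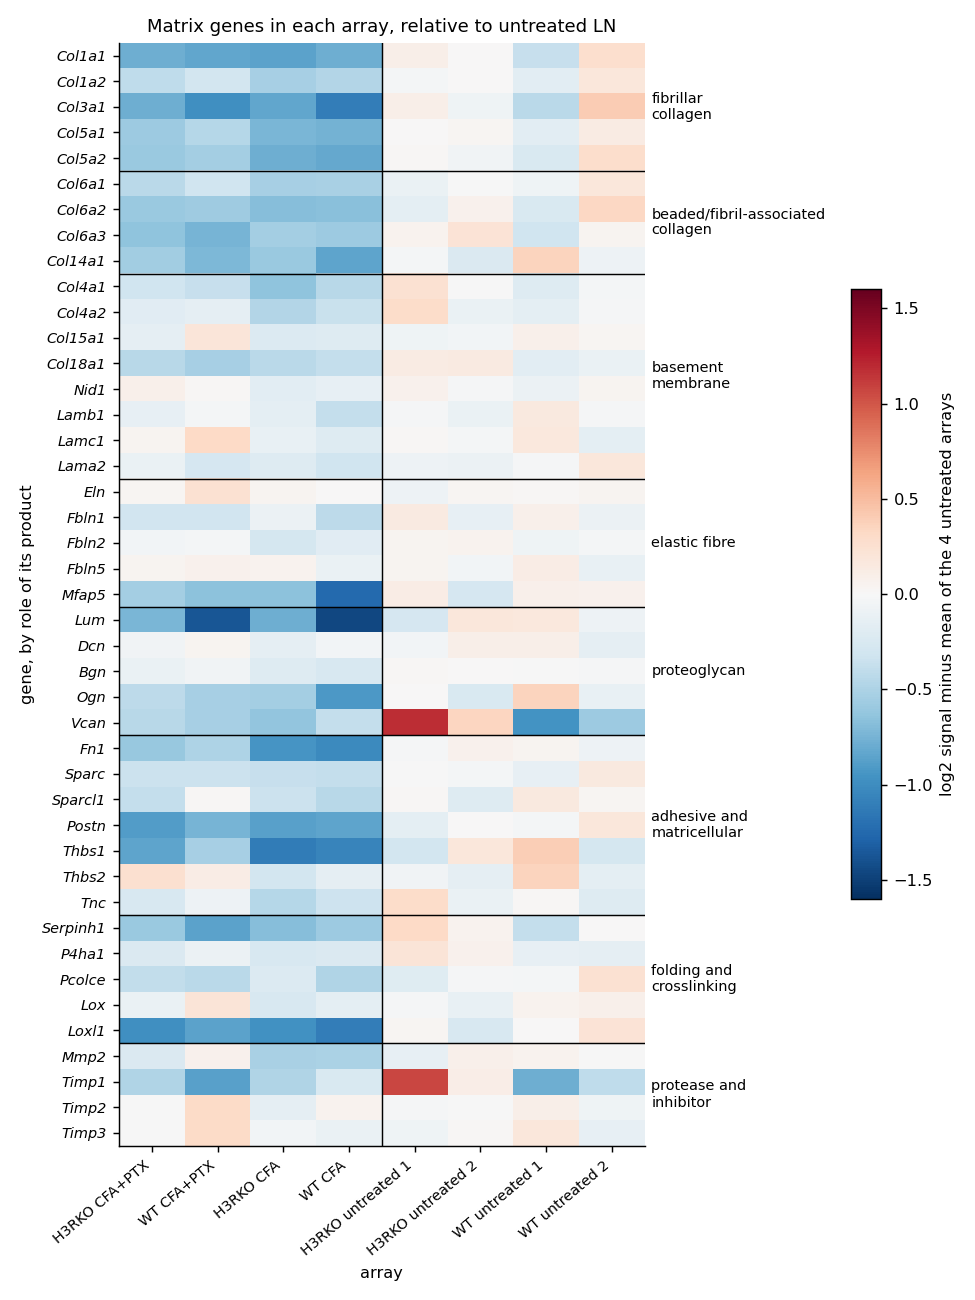
Log2 signal of the 43 measured matrix genes (rows, grouped by role) in each of the 8 arrays (columns), minus the mean of the 4 untreated arrays of that gene; blue is lower and red higher. The 9 fibrillar, beaded filament and fibril-associated collagens at the top are blue in all 4 injected arrays, and Vcan and Timp1 are red in H3RKO untreated replicate 1.

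CFA alone was set against untreated LN over both genotypes (2 arrays against 4). The signal was lower for 42 of the 43 genes, with a median difference of −0.41, where the median of all genes was 0.01. At an unadjusted p under 0.05, 31 of the 43 were lower and none higher, against 3.31% of all genes lower; without both arrays low in gland genes 29 were lower, against 3.02%. More than a 2-fold difference at an unadjusted p under 0.05, the criterion that the study used, was found for Lum, Thbs1 and Loxl1, against 0.0888% of all genes lower. With p-values adjusted by the Benjamini-Hochberg method for all 22626 probe sets, limma called none of the 43, and 0% of all genes; the lowest adjusted p was that of Fn1 (0.0543). Within H3RKO 41 genes were lower after CFA and within WT 40, with 38 lower in both and medians of −0.48 in H3RKO and −0.40 in WT.

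CFA+PTX was set against the same untreated arrays. The signal was lower for 34 of the 43 genes and the median difference was −0.35, where that of all genes was 0.01. At an unadjusted p under 0.05, 22 were lower and none higher, against 5.54% of all genes lower; without both arrays low in gland genes 17 were lower, against 2.7%. Lum alone met the study's criterion, against 0.137% of all genes lower. The adjusted test in limma called none of the 43 genes and 0% of all genes, and the lowest adjusted p was that of Postn (0.0747). In H3RKO 36 genes were lower and in WT 28, all 28 of which were also lower in H3RKO, with medians of −0.35 in H3RKO and −0.30 in WT. The median difference over both genotypes was −0.36 without the WT CFA+PTX array. These 2 comparisons share the untreated arrays, so their likeness is no separate evidence.

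**Figure D2:**
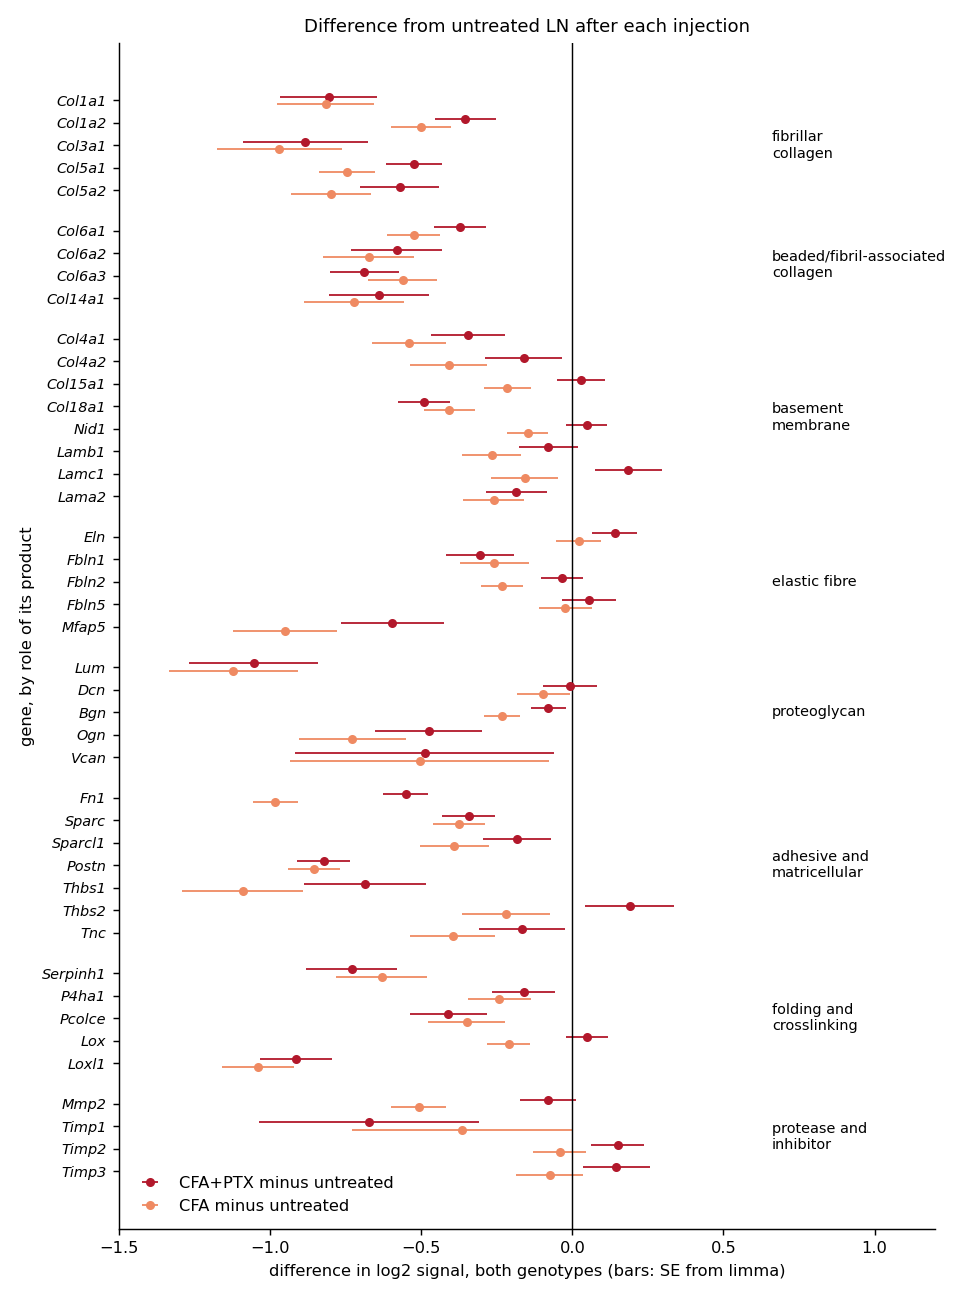
Difference in log2 signal from untreated LN for each of the 43 genes (rows, by role) after CFA+PTX (dark red) and after CFA (orange), with bars for the SE from limma. Nearly all points lie left of 0 after CFA, and after CFA+PTX most basement membrane and elastic fibre genes lie near 0, with Col4a1, Col18a1, Fbln1 and Mfap5 further left.

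The fibrillar collagens, which form the rope-like fibres of the capsule and of the reticular network, were all lower. Their differences ran from −0.88 to −0.35 after CFA+PTX and from −0.97 to −0.50 after CFA, with medians of −0.57 and −0.80 in that order, and all 5 had an unadjusted p under 0.05 in both comparisons. Col3a1, the chain of type III collagen that makes up reticular fibres, had log2 signals of 11.15 in H3RKO CFA+PTX, 10.95 in WT CFA+PTX, 11.10 in H3RKO CFA and 10.83 in WT CFA, against 12.03 and 11.87 in H3RKO untreated and 11.50 and 12.33 in WT untreated. The 4 injected arrays lay within a narrower range than the 2 WT untreated arrays, and below all untreated arrays. Its difference was −0.88 ± 0.21 after CFA+PTX (adjusted p = 0.221) and −0.97 ± 0.21 after CFA (adjusted p = 0.529). Col1a1, a chain of type I collagen, lay between 9.26 and 9.34 in the injected arrays and between 9.74 and 10.38 in the untreated arrays. Col1a2, the partner chain, differed least of the 5, by −0.35 ± 0.10 after CFA+PTX and −0.50 ± 0.10 after CFA. Col5a1 and Col5a2, chains of the type V collagen that seeds fibrils, differed by −0.52 and −0.57 after CFA+PTX and by −0.75 and −0.80 after CFA. Col5a2 and Col3a1 are next to each other in the gene order of chromosome 1, with no protein-coding gene between them.

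The collagens that link fibres to cells and to each other were lower too. Col6a1, Col6a2 and Col6a3, the chains of the beaded filaments of type VI collagen, and Col14a1, a collagen that coats fibrils, differed by −0.69 to −0.37 after CFA+PTX and by −0.72 to −0.53 after CFA. All 4 had an unadjusted p under 0.05 in both comparisons and none passed after adjustment. Col6a3 had the largest difference of the 4 after CFA+PTX (−0.69 ± 0.11), with 9.35 to 9.55 in the injected arrays and 9.77 to 10.31 in the untreated arrays. Col6a1 and Col6a2 are neighbours on chromosome 10 with no protein-coding gene between them.

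Basement membrane genes had smaller median differences, −0.12 after CFA+PTX and −0.26 after CFA. Of 8, all were lower after CFA (−0.54 to −0.15, 6 with an unadjusted p under 0.05), and 5 were lower and 3 higher after CFA+PTX (−0.49 to 0.19, 2 with an unadjusted p under 0.05, both lower). Col18a1, the parent of endostatin found in vessel basement membranes, lay between 7.63 and 7.78 in the injected arrays and between 8.00 and 8.31 in the untreated arrays, with differences of −0.49 ± 0.09 after CFA+PTX and −0.41 ± 0.09 after CFA. Col4a1, the main chain of the type IV network, also separated the injected arrays (10.53 to 10.84) from the untreated ones (10.96 to 11.41), as did the laminin gene Lama2 (6.96 to 7.17 against 7.19 to 7.47). The overlapping neighbour of Col4a1, Col4a2, overlapped between the groups, at 10.10 to 10.43 in injected and 10.41 to 10.86 in untreated LN. Nid1, whose product nidogen ties laminin to type IV collagen, and Lamc1, the laminin chain shared by most laminins, gave 0.05 ± 0.07 and 0.19 ± 0.11 after CFA+PTX, and −0.15 ± 0.07 and −0.16 ± 0.11 after CFA. Neither gene had an unadjusted p under 0.05 in these comparisons, nor did Lama2 after CFA+PTX. Lamb1, a laminin beta chain gene, gave −0.08 ± 0.10 after CFA+PTX and −0.27 ± 0.10 after CFA, with the groups overlapping (7.82 to 8.17 in injected and 8.09 to 8.35 in untreated LN).

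The elastic fibre genes were mixed. Eln, which encodes elastin, gave 0.14 ± 0.07 after CFA+PTX (95% interval −0.03 to 0.32) and 0.02 ± 0.07 after CFA (−0.15 to 0.20). Fbln5, whose product guides elastic fibre assembly, gave 0.06 ± 0.09 (−0.15 to 0.26) and −0.02 ± 0.09 (−0.23 to 0.18). These intervals leave out a difference as large as that of the fibrillar collagens. Mfap5, a microfibril-associated glycoprotein, had 6.53 in H3RKO CFA+PTX, 6.41 in WT CFA+PTX, 6.41 in H3RKO CFA and 5.82 in WT CFA, against 7.19 and 6.80 in H3RKO untreated and 7.14 and 7.13 in WT untreated. All injected arrays lay below all untreated arrays, WT CFA lowest, and the differences were −0.60 ± 0.17 after CFA+PTX (adjusted p = 0.269) and −0.95 ± 0.17 after CFA (adjusted p = 0.451).

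Proteoglycans held the largest difference of the set and one of the smallest side by side. Lumican, the product of Lum, is a small leucine-rich proteoglycan that spaces collagen fibrils. Its log2 signal was 9.17 in H3RKO CFA+PTX, 8.54 in WT CFA+PTX, 9.12 in H3RKO CFA and 8.45 in WT CFA, against 9.64 and 10.09 in H3RKO untreated and 10.08 and 9.83 in WT untreated. The difference was −1.05 ± 0.21 after CFA+PTX (2.08-fold, adjusted p = 0.202) and −1.12 ± 0.21 after CFA (2.18-fold, adjusted p = 0.459). Dcn, picked out after its values were seen, encodes decorin of the same family and is the next protein-coding gene to Lum on chromosome 10. Its signal was 13.03, 13.12, 12.94 and 13.04 in the injected arrays in the same order, against 13.04 and 13.18 in H3RKO untreated and 13.18 and 12.95 in WT untreated. The groups overlapped, and the differences were −0.01 ± 0.09 after CFA+PTX (95% interval −0.22 to 0.20) and −0.10 ± 0.09 after CFA (−0.30 to 0.11). The Dcn probe set is bright, with a mean signal at percentile 99.0 of all probe sets, against percentile 70.5 for Lum. Ogn, the gene of osteoglycin, another of this family, gave −0.48 ± 0.18 after CFA+PTX and −0.73 ± 0.18 after CFA, and Bgn, which encodes biglycan, −0.08 ± 0.06 and −0.23 ± 0.06; both had all injected arrays below all untreated ones. Versican, the product of Vcan, is described with the genotypes.

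**Figure D3:**
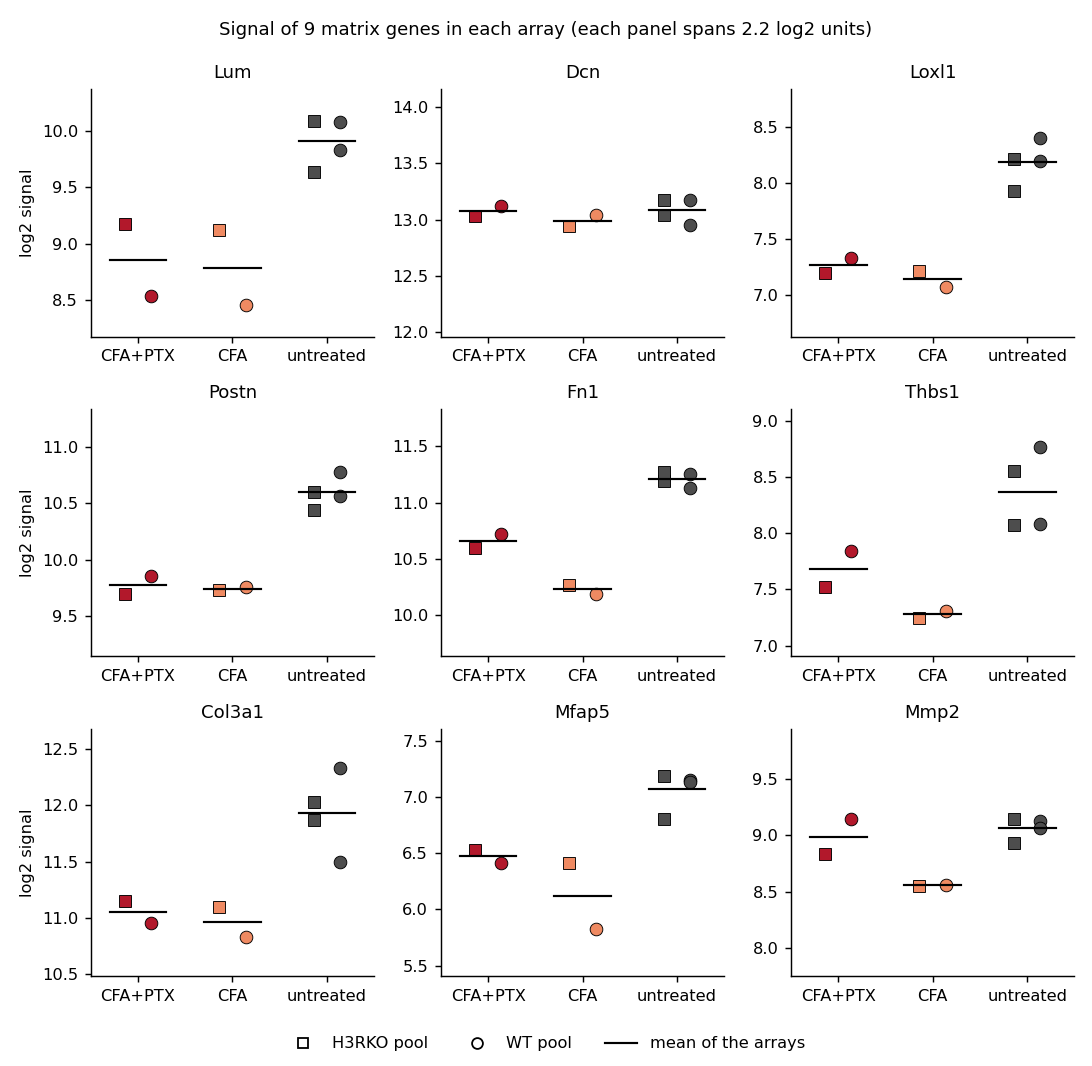
Log2 signal of 9 matrix genes in each array by treatment, with squares for H3RKO pools, circles for WT pools and a line for the mean of the arrays of a treatment; each panel spans the same range of log2 units. Lum, Loxl1, Postn, Fn1, Thbs1, Col3a1 and Mfap5 have all 4 injected arrays below all 4 untreated arrays, Dcn overlaps, and for Mmp2 the 2 CFA arrays lie below all others.

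The adhesive and matricellular glycoproteins included the genes with the lowest adjusted p of the set in both comparisons, Postn after CFA+PTX and Fn1 after CFA. Fn1 encodes fibronectin, the glycoprotein that cells grip through integrins and on which collagen is laid down. Its signal was 10.60 in H3RKO CFA+PTX, 10.72 in WT CFA+PTX, 10.27 in H3RKO CFA and 10.19 in WT CFA, against 11.19 and 11.27 in H3RKO untreated and 11.25 and 11.13 in WT untreated. The 3 treatments did not overlap, with CFA lowest, and the differences were −0.55 ± 0.07 after CFA+PTX (adjusted p = 0.0988) and −0.98 ± 0.07 after CFA (adjusted p = 0.0543). Postn encodes periostin, a matricellular protein of fibroblasts that binds collagen and fibronectin. It had 9.70 in H3RKO CFA+PTX, 9.85 in WT CFA+PTX, 9.73 in H3RKO CFA and 9.76 in WT CFA, against 10.44 and 10.60 in H3RKO untreated and 10.56 and 10.78 in WT untreated. The injected arrays spanned a small range well below the untreated arrays, with differences of −0.82 ± 0.09 after CFA+PTX (adjusted p = 0.0747) and −0.86 ± 0.09 after CFA (adjusted p = 0.131).

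Thbs1, the gene of thrombospondin-1, which activates latent TGF-beta, had 7.52 in H3RKO CFA+PTX, 7.84 in WT CFA+PTX, 7.25 in H3RKO CFA and 7.31 in WT CFA, against 8.08 and 8.55 in H3RKO untreated and 8.76 and 8.08 in WT untreated. It lay below untreated LN in each injected array, by −0.69 ± 0.20 after CFA+PTX (adjusted p = 0.274) and −1.09 ± 0.20 after CFA (adjusted p = 0.451). Its relative Thbs2 overlapped between the groups, with 8.72 in H3RKO CFA+PTX, 8.59 in WT CFA+PTX, 8.17 in H3RKO CFA and 8.32 in WT CFA, against 8.41 and 8.32 in H3RKO untreated and 8.83 and 8.31 in WT untreated. Sparc, a collagen-binding protein, lay at 11.79 to 11.83 in the injected arrays and 12.05 to 12.33 in the untreated arrays. Its relative Sparcl1 and the tenascin gene Tnc overlapped between the groups, with differences of −0.18 ± 0.11 and −0.17 ± 0.14 after CFA+PTX and −0.39 ± 0.11 and −0.40 ± 0.14 after CFA.

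Among the genes that fold, trim and crosslink collagen, Loxl1 stood furthest from untreated LN. Its product is a lysyl oxidase-like enzyme that crosslinks elastin and collagen. The signal was 7.20 in H3RKO CFA+PTX, 7.33 in WT CFA+PTX, 7.21 in H3RKO CFA and 7.07 in WT CFA, against 8.21 and 7.93 in H3RKO untreated and 8.19 and 8.39 in WT untreated. No injected array came near the untreated range, and the differences were −0.92 ± 0.12 after CFA+PTX (adjusted p = 0.0888) and −1.04 ± 0.12 after CFA (adjusted p = 0.153). Lox, the founding member of the same enzyme family, overlapped between the groups, at 6.97 to 7.43 in injected and 7.12 to 7.31 in untreated LN, and its other 2 probe sets disagreed in sign with each other after CFA. Serpinh1, which encodes the collagen chaperone HSP47, had 10.07 in H3RKO CFA+PTX, 9.81 in WT CFA+PTX, 9.98 in H3RKO CFA and 10.09 in WT CFA, against 10.99 and 10.72 in H3RKO untreated and 10.29 and 10.67 in WT untreated. It and Pcolce, an enhancer of procollagen trimming, had all injected arrays below the untreated ones, while P4ha1, a subunit of the prolyl hydroxylase that stabilises the collagen helix, overlapped (−0.16 ± 0.10 after CFA+PTX and −0.24 ± 0.10 after CFA).

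None of the 4 protease and inhibitor genes separated the injected from the untreated arrays. Mmp2, the gelatinase gene of fibroblasts, had 8.83 in H3RKO CFA+PTX, 9.14 in WT CFA+PTX, 8.55 in H3RKO CFA and 8.56 in WT CFA, against 8.93 and 9.14 in H3RKO untreated and 9.13 and 9.06 in WT untreated. Both CFA arrays lay below all other arrays, with a difference of −0.51 ± 0.09 after CFA (adjusted p = 0.451) against −0.08 ± 0.09 after CFA+PTX (adjusted p = 0.778). The metalloproteinase inhibitor genes Timp2 and Timp3 gave 0.15 ± 0.09 and 0.15 ± 0.11 after CFA+PTX, and −0.04 ± 0.09 and −0.07 ± 0.11 after CFA, none with an unadjusted p under 0.05.

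Since both injections contain CFA and the values above lay on the same side, the 4 injected arrays were also fitted as 1 group against the 4 untreated arrays, a choice made after the data were seen. Postn fell, by 0.84 ± 0.07 on the log2 scale (adjusted p = 0.0114), and Loxl1 fell by 0.98 ± 0.10 (adjusted p = 0.0319), lower in 4 of 4 injected arrays in each case. They were 2 of only 6 genes called, 0.0484% of all genes. At an unadjusted p under 0.05, 29 of the 43 genes were lower and none higher, against 5.01% of all genes lower. With 1 array left out, the adjusted p of Postn lay between 0.0202 and 0.0879, and missed 0.05 without H3RKO CFA+PTX (0.0879), WT CFA+PTX (0.0567) or WT CFA (0.0665). That of Loxl1 lay between 0.0305 and 0.201 and stayed under 0.05 only without H3RKO untreated replicate 2. Without both arrays low in gland genes the differences were −0.88 for Postn and −1.02 for Loxl1, with adjusted p = 0.0759 and 0.184, and none of the 43 genes was called.

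CFA+PTX was then set against CFA, 2 arrays against 2, using the same arrays as above. The signal was higher after CFA+PTX for 37 of the 43 genes and the median difference was 0.15, where that of all genes was 0.00 to 2 decimals. In limma none of the 43, and 0% of all genes, passed after adjustment; 8 of the 43 had an unadjusted p under 0.05 and were higher, against 3.33% of all genes, and none lower. The 8 were Fn1 (0.43 ± 0.09), Mmp2 (0.43 ± 0.11), Thbs2 (0.41 ± 0.17), Lamc1 (0.34 ± 0.13), Lox (0.26 ± 0.08), Col15a1 (0.24 ± 0.09), Nid1 (0.20 ± 0.08) and Fbln2 (0.20 ± 0.08), with the lowest adjusted p at 0.855. Basement membrane genes made up 3 of the 8 and fibrillar collagens none. The count rested on single arrays, being 2 without WT CFA+PTX, the array low in gland genes, and 4 without WT CFA. Markers of stromal and vessel cells were higher too, 13 of 15 for fibroblasts and reticular cells (median 0.26) and all 16 for endothelium (median 0.23). At an unadjusted p under 0.05 in limma, 6 and 7 of them were higher, against 3.33% of all genes. By contrast, 8 of 11 lymphocyte markers (median −0.14) and 10 of 15 adipocyte markers (median −0.09) were lower. The part of these cells was not tested.

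Matrix genes outside the set lay closer to their untreated level, by their medians. Of 32 other structural matrix genes, 18 were lower after CFA+PTX with a median of −0.04, and 21 were lower after CFA with a median of −0.07. At an unadjusted p under 0.05, 4 were lower and 2 higher after CFA+PTX, against 5.54% of all genes lower and 936 of 12393 higher. After CFA 8 were lower and none higher, against 3.31% of all genes lower. Col5a3, a further chain of type V collagen, was the furthest from untreated LN, at −0.72 ± 0.20 and −0.89 ± 0.20. The 32 genes were dimmer than the 43, with means of 7.33 to 7.55 in the injected and 7.47 to 7.56 in the untreated arrays. The means over the 43 genes were 8.96 to 9.15 and 9.41 to 9.52. The part of signal level in this contrast was not tested. Of 27 other matrix enzymes and inhibitors, 18 were lower after each injection with medians of −0.11 after CFA+PTX and −0.10 after CFA. At an unadjusted p under 0.05, 6 were lower and 4 higher after CFA+PTX, and 6 lower and none higher after CFA. The mean over these 27 genes was 7.33 to 7.48 in the injected arrays and 7.49 to 7.61 in the untreated arrays. The ranges did not overlap but nearly met, at 7.482 and 7.489. Among them Mmp3, the gene of stromelysin-1, had 8.72 in H3RKO CFA+PTX, 8.35 in WT CFA+PTX, 8.75 in H3RKO CFA and 8.21 in WT CFA, against 9.52 and 9.68 in H3RKO untreated and 9.18 and 9.08 in WT untreated. All injected arrays lay below all untreated arrays, and Mmp3 fell by 0.86 ± 0.06 in the 1-group comparison (adjusted p = 0.00893). Adamts1, an inflammation-induced protease gene, was in contrast higher after CFA+PTX by 0.84 ± 0.15 (adjusted p = 0.194). Of 16 genes of the TGF-beta pathway, which drives matrix synthesis, 7 were lower after CFA+PTX and 9 after CFA, with medians of 0.02 and −0.03.

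Markers of the cells that make matrix, and of tissue beside the node, were read from the same arrays. Of 15 fibroblast and reticular cell markers, 7 were lower after CFA+PTX (median 0.04) and 12 after CFA (median −0.10). At an unadjusted p under 0.05, 2 were lower and 4 higher after CFA+PTX, against 5.54% of all genes lower and 936 of 12393 higher. After CFA 4 were lower and none higher, against 3.31% of all genes lower. Dpt, which encodes the matrix protein dermatopontin and also stands among the structural genes above, was lower after CFA by −0.71 ± 0.17, while Il7 (0.74 ± 0.17) and Cxcl13 (0.38 ± 0.10), cytokine genes of reticular stroma, were higher after CFA+PTX. The mean over the 15 markers was 9.23 to 9.60 in the injected arrays and 9.40 to 9.54 in the untreated arrays, whereas that over the 43 matrix genes was 8.96 to 9.15 and 9.41 to 9.52. The ranges thus overlapped for the markers and not for the matrix genes. After CFA alone, though, the marker means of 9.35 in H3RKO and 9.23 in WT lay below all untreated arrays. Smooth muscle and pericyte markers had medians of −0.02 after CFA+PTX and −0.16 after CFA (12 genes), and endothelial markers 0.22 and 0.03 (16 genes). Of these 16, 9 were higher after CFA+PTX at an unadjusted p under 0.05, against 936 of 12393 genes. Adipocyte markers were lower too, all 15 after CFA+PTX (median −0.45) and 13 after CFA (median −0.16), with means of 9.61 to 10.05 in the injected arrays and 9.86 to 10.36 in the untreated arrays. Their mean was 9.61 in H3RKO CFA+PTX and 10.05 in H3RKO CFA, against 10.03 and 9.86 in H3RKO untreated. It was 9.80 in WT CFA+PTX and 9.69 in WT CFA, against 10.36 and 10.26 in WT untreated. Skeletal muscle markers had medians of −0.13 and −0.16, with means of 6.04 to 6.61 and 6.19 to 6.99. The part of these tissues in the differences of the matrix genes was not tested.

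**Figure D4:**
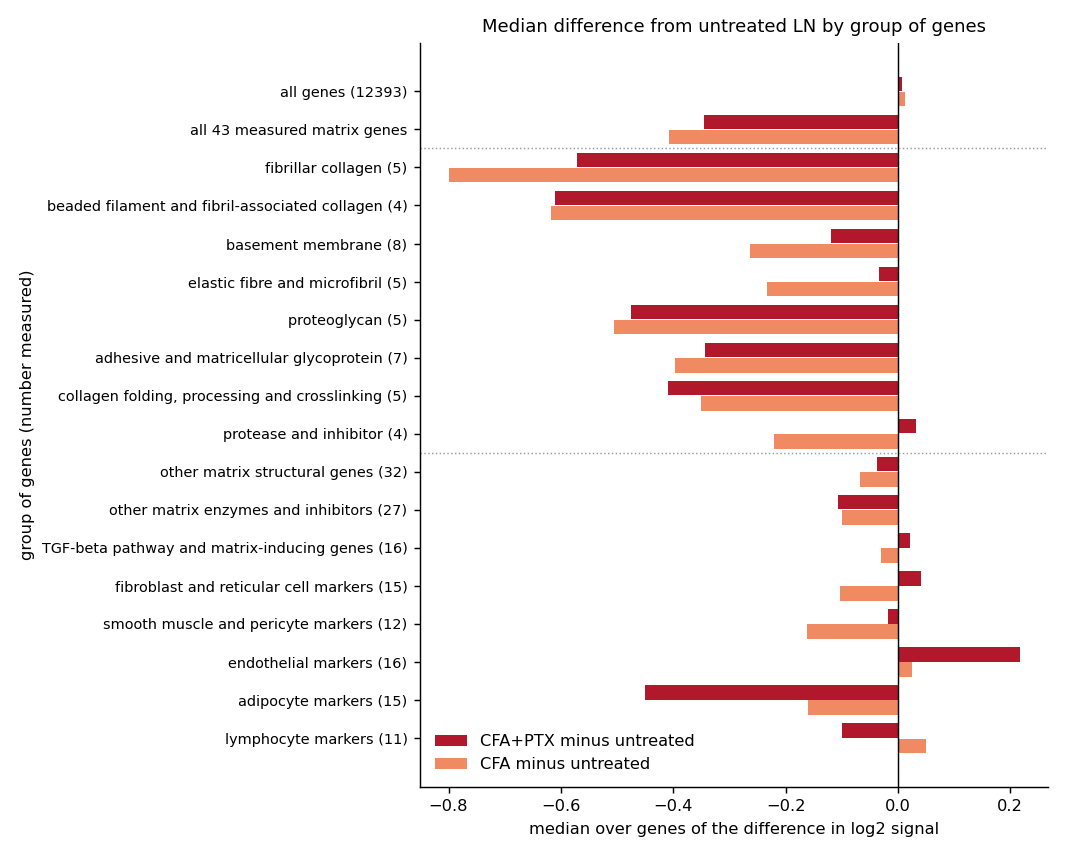
Median difference in log2 signal from untreated LN after CFA+PTX (dark red) and after CFA (orange) over all genes, the 43 matrix genes, their roles, and lists of other matrix genes and cell type markers, with the number of genes measured. The collagen groups lie furthest below 0 and the TGF-beta genes lie near 0. Fibroblast markers lie near 0 after CFA+PTX (0.04) and below 0 after CFA (−0.10). Adipocyte markers lie below 0, further so after CFA+PTX.

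Between the genotypes, the matrix genes as a set were level. In untreated LN (2 H3RKO against 2 WT arrays) the median difference, H3RKO minus WT, was −0.02, with 25 genes lower and 18 higher, and all genes had a median of −0.02. The study's criterion was met by 2 of the 43 genes, Vcan and Timp1, against 0.161% of all genes. Vcan encodes versican, a large proteoglycan that monocytes as well as fibroblasts can make. Its signal was 6.80 and 5.97 in H3RKO untreated, against 4.66 and 5.04 in WT untreated, a difference of 1.53 ± 0.29 (2.90-fold, unadjusted p = 0.00222, adjusted p = 0.916). Timp1, the gene of a metalloproteinase inhibitor induced in inflammation, had 8.93 and 7.97 in H3RKO untreated, against 7.08 and 7.45 in WT untreated, a difference of 1.18 ± 0.32 (2.27-fold, unadjusted p = 0.0115, adjusted p = 0.916). For both genes the H3RKO arrays lay above the WT arrays and replicate 1 of H3RKO was the higher. Timp1 no longer met the criterion without that array (0.70) or without WT untreated replicate 1 (1.00), nor did Vcan when all its probe sets were averaged (0.98), and neither met it in the linear model without moderation. Vcan's probe set was dim, with 19.9% of probe sets at or below its mean signal.

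Markers of neutrophils and inflammatory monocytes were higher in the same arrays. All 16 markers measured were higher in H3RKO untreated than in WT untreated arrays, with a median difference of 0.74. At an unadjusted p under 0.05, 15 of them were higher, against 210 of 12393 genes. The mean over the 16 markers was 8.63 and 8.38 in H3RKO untreated, against 7.59 and 7.70 in WT untreated. S100a9, a neutrophil alarmin gene, had 10.79 and 10.68 in H3RKO untreated, against 8.85 and 9.17 in WT untreated. Other lists differed in the same arrays: all 13 interferon-induced genes were higher in H3RKO (median 0.62), 11 of 14 skeletal muscle markers were higher (median 0.36; means of 6.99 and 6.43 in H3RKO untreated, against 6.24 and 6.19 in WT untreated), and 14 of 15 adipocyte markers were lower (median −0.32). The part of such cells and tissues in the values of Vcan and Timp1 was not tested. With CFA+PTX the mean of the neutrophil and inflammatory monocyte markers was 8.34 in H3RKO, against 7.71 in WT. Vcan had 5.18 in H3RKO CFA+PTX, against 5.08 in WT CFA+PTX, and Timp1 7.38, against 6.99. With CFA the mean of these markers was 8.05 in H3RKO, against 7.99 in WT. Vcan had 4.99 in H3RKO CFA, against 5.24 in WT CFA, and Timp1 7.37, against 7.61. Each of these compares 1 pool with 1 pool. Serpinh1, next in size after Vcan and Timp1 in untreated LN, differed by 0.37 ± 0.16 (H3RKO 10.99 and 10.72, WT 10.29 and 10.67).

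**Figure D5:**
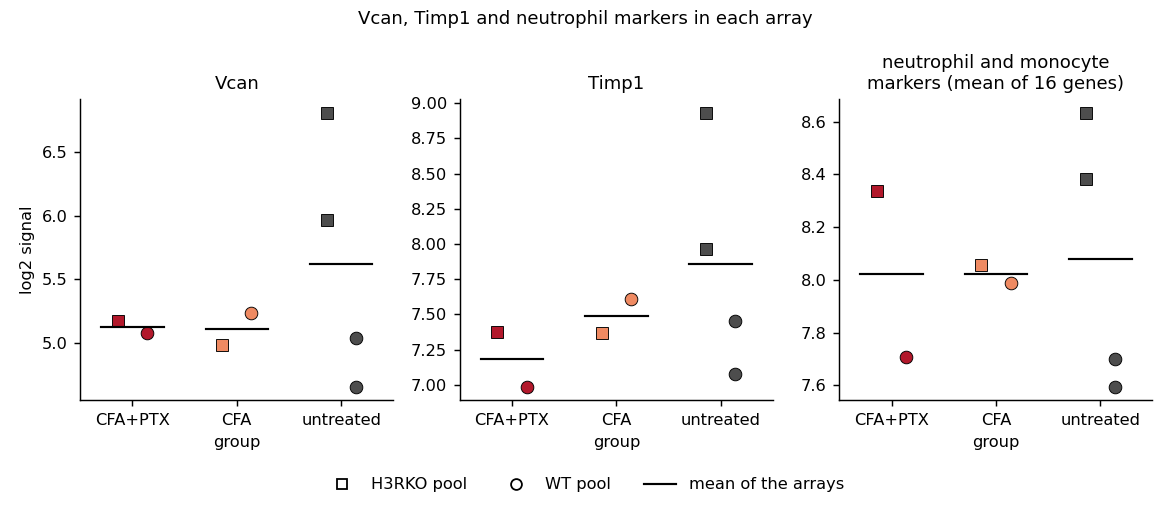
Log2 signal of Vcan, of Timp1 and of the mean over 16 neutrophil and inflammatory monocyte markers in each array by treatment, with squares for H3RKO pools, circles for WT pools and a line for the mean of the arrays of a treatment. In untreated LN the H3RKO arrays lie above the WT arrays in all 3 panels, and after injection the genotypes lie close together for Vcan.

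After injection none of the 43 genes met the study's criterion between the genotypes. With CFA+PTX the median difference, H3RKO minus WT, was −0.04, with 0.347% of all genes meeting the criterion, and Col15a1 (−0.33 ± 0.12) and Lum (0.64 ± 0.25) had an unadjusted p under 0.05 in limma, 2 of 43 against 3.36% of all genes. Sparcl1, a matricellular gene of vessel walls, had 8.73 in H3RKO CFA+PTX, against 9.12 in WT CFA+PTX. With CFA the median was −0.01, with 0.145% of all genes meeting the criterion, and Lum (0.67 ± 0.25) and Mfap5 (0.59 ± 0.20) had an unadjusted p under 0.05, 2 of 43 against 2.35% of all genes. Outside the set, the matrix enzyme list held Pcolce2, a relative of Pcolce, which met the criterion with CFA, at 6.87 in H3RKO CFA, against 5.79 in WT CFA (1.08 ± 0.19, unadjusted p = 0.00145, adjusted p = 1.00). Lum was thus higher in the H3RKO array than in the WT array after both injections, 9.17 against 8.54 and 9.12 against 8.45, while the untreated arrays of the genotypes overlapped. Ogn had 7.40 in H3RKO CFA, against 7.03 in WT CFA, with 7.53 against 7.41 after CFA+PTX. Each of these differences compares 1 pool with 1 pool. In the same arrays, H3RKO against WT, 10 of 15 adipocyte markers were lower with CFA+PTX (median −0.22). So were 13 of 14 skeletal muscle markers (median −0.38) and 15 of 16 endothelial markers (median −0.23). Also lower were 11 of 12 smooth muscle and pericyte markers (median −0.24) and 13 of 15 fibroblast and reticular cell markers (median −0.12). Of all genes, 7231 of 12393 were lower. With CFA, 14 of 15 adipocyte and 14 of 14 skeletal muscle markers were higher (medians 0.33 and 0.25). The other 3 lists had medians of −0.08, 0.03 and 0.10 with CFA, in the same order. The part of these cells and tissues was not tested.

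Over all treatments together (4 H3RKO against 4 WT arrays) limma called none of the 43 genes, and 0% of all genes, after adjustment. At an unadjusted p under 0.05 Lox alone differed, against 3.84% of all genes, with a difference of −0.17 ± 0.06, and 1 of its 2 other probe sets had the opposite sign. The largest differences were those of Vcan (0.73 ± 0.35), Timp1 (0.63 ± 0.30) and Lum (0.28 ± 0.17). The median over the 43 genes was −0.01, as was that over all genes.

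Whether the injection difference depended on genotype was tested as an interaction, the H3RKO difference from untreated LN minus that of WT. For CFA, Vcan (−1.79 ± 0.50) and Timp1 (−1.43 ± 0.55) met the study's criterion, 2 of 43 against 0.412% of all genes; for CFA+PTX, Vcan did (−1.44 ± 0.50), 1 of 43 against 0.307% of all genes. In limma none of the 43 passed after adjustment, nor met the criterion in the linear model without moderation, while at an unadjusted p under 0.05 there were 3 for CFA, against 4.36% of all genes, and 2 for CFA+PTX, against 2.45%. Vcan differed from its own untreated arrays by −1.21 in H3RKO and 0.23 in WT after CFA+PTX, and by −1.40 in H3RKO and 0.39 in WT after CFA. The 4 injected arrays held Vcan between 4.99 and 5.24, close to the WT untreated arrays, so that the H3RKO untreated arrays were the ones that stood apart. Timp1 differed by −1.07 in H3RKO and −0.28 in WT after CFA+PTX, and by −1.08 in H3RKO and 0.35 in WT after CFA. Lum ran the other way, at 0.73 ± 0.31 for CFA+PTX and 0.76 ± 0.31 for CFA, neither with an unadjusted p under 0.05 in limma. Its signal was lower than untreated in both genotypes: −0.69 in H3RKO and −1.42 in WT after CFA+PTX, and −0.74 in H3RKO and −1.502 in WT after CFA. Mfap5 for CFA (0.73 ± 0.25) and P4ha1 for CFA+PTX (−0.40 ± 0.16) had an unadjusted p under 0.05 with less than the fold the criterion asks. The Vcan interaction for CFA+PTX no longer met the criterion without WT untreated replicate 1 (−1.25), nor did that of Timp1 for CFA without H3RKO untreated replicate 1 (−0.95), WT untreated replicate 1 (−1.24) or WT untreated replicate 2 (−1.61). For the set, the median interaction was −0.11 for CFA+PTX, where that of all genes was −0.01, and 0.05 for CFA, where that of all genes was also 0.05. The interaction with CFA was above 0 for 14 of 15 adipocyte markers (median 0.62). At an unadjusted p under 0.05, 11 of these markers were above 0, against 368 of 12393 genes. The part of adipocytes was not tested. Both interactions rest on the same untreated arrays.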

How the data were processed

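LN RNA of 8 pools was hybridised to Affymetrix GeneChip mouse arrays of 1 colour. The values used are log2 signals, which the authors corrected for background, normalised and summarised per probe set with RMA in Partek Genomic Suites before they were deposited. Of 22690 probe sets, 64 control probe sets were left out and 22626 were tested. The platform annotation gave 20380 probe sets 1 gene, 691 several and 1555 none.

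Groups came from the sample labels. Differences were fitted with limma 3.58.1 in R 4.3.3: genotype within a treatment and the interactions in a model of 6 group means, called by the study's criterion, and treatments and genotype overall in an additive model, called at a Benjamini-Hochberg adjusted p under 0.05 over all probe sets. The code was tested on simulated data. All 43 genes were named, with values per array for those called and the 3 with the largest difference in each comparison, and up to 3 genes per other list. The genes and lists were chosen with earlier results of these data known. Alternatives were other normalisations, filters, probe set rules, moderation, thresholds and leaving out each array.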

Additional observations from a re-analysis of the deposited data

Results flagged for a closer look

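The difference of Vcan and Timp1 from untreated LN was not the same in H3RKO and WT, by the interaction test in limma at an unadjusted p under 0.05 with more than a 2-fold difference. For CFA the H3RKO difference from untreated LN minus the WT difference was −1.79 for Vcan (unadjusted p = 0.0130, adjusted p = 0.848). For Timp1 it was −1.43 (unadjusted p = 0.0450, adjusted p = 0.852). For CFA+PTX the interaction of Vcan was −1.44 (unadjusted p = 0.0301, adjusted p = 1.00). These interactions use the same untreated arrays in which both genes were higher in H3RKO than in WT. None met the criterion in the linear model without moderation. That of Timp1 for CFA also missed it without H3RKO untreated replicate 1, WT untreated replicate 1 or WT untreated replicate 2. No group had enough arrays for a search for outlying samples.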

How the results depend on the processing

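With 8 pools and 1 array per injected group, calls near a threshold moved with the processing, and so did the sign of medians close to 0; no called value turned sign. Of the comparisons' values under alternatives, 236 stayed the same, 31 moved, 25 weakened and 14 strengthened; for single genes, 399 stayed the same, 14 weakened and 4 strengthened.

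The genes called by adjusted p after CFA, none as reported, were 1 (Fn1) with arrays centred on their medians, with probe sets of a mean of at least 7, or without probe sets that can cross-hybridise by their suffix, 2 (Postn, Fn1) with trend and robust moderation, 2 with all injected arrays as 1 group, and 3 by the study's criterion. After CFA+PTX they were 1 (Postn) with all probe sets of a gene averaged or with the filter, 3 (Postn, Fn1, Loxl1) with trend and robust moderation, 2 with 1 injected group and 1 by the criterion. The 1-group fit, chosen after seeing the data, called 0 without both arrays low in gland genes. Between genotypes a 1.5-fold limit gave 2 genes with CFA and 1 with CFA+PTX. In untreated LN the count was 0 by adjusted p or without moderation, and 1 with averaged probe sets or the filter. The interaction for CFA gave 0 by adjusted p or without moderation, and 1 with the filter, a second quantile normalisation or trend and robust moderation; that for CFA+PTX gave 0 by adjusted p, without moderation or with the filter.

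The median over the 43 genes for CFA+PTX against CFA was 0.120 centred and 0.191 without the suffixed probe sets. For CFA+PTX against untreated LN it was −0.380 with 1 injected group, −0.316 with averaged probe sets and −0.289 without the suffixed ones. For H3RKO against WT it was 0.0389 without the suffixed ones with CFA, and −0.0115 centred and −0.110 without the suffixed ones with CFA+PTX. The median for CFA was −0.460 without both arrays low in gland genes, a choice made after seeing the data. The interaction median for CFA was 0.0126 with averaged probe sets and 0.0758 after a second quantile normalisation, and for CFA+PTX −0.0644 centred and −0.157 without the suffixed ones.

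With a replicate block the median for CFA+PTX against untreated LN was −0.297. The replicate numbers are only shared: the deviations of same-numbered untreated arrays correlated at r = 0.123 over probe sets, with 2 pairs. The block changed no call of the 43 genes in any comparison it could be fitted to.

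Leaving out 1 array at a time gave counts of 0 to 0 for CFA, CFA+PTX, CFA+PTX against CFA, and H3RKO against WT with CFA, with CFA+PTX and over all treatments, 1 to 2 in untreated LN, 1 to 2 and 0 to 2 for the interactions with CFA and CFA+PTX, and 0 to 2 for 1 injected group. Medians ranged from −0.480 to −0.376 for CFA, −0.396 to −0.265 for CFA+PTX, 0.116 to 0.191 for CFA+PTX against CFA, −0.0402 to 0.0112 for H3RKO against WT over all treatments, −0.0388 to −0.00385 untreated, −0.00625 with CFA, −0.0407 with CFA+PTX, and 0.00925 to 0.0765 and −0.130 to −0.0632 for the interactions with CFA and CFA+PTX.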
